A study of Mus musculus with 6 samples.

Results

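The genes described here encode calcium-binding proteins of the S100 and annexin families: S100a1, S100a4, S100a6, S100a10, S100a11 and Anxa1 to Anxa5. They were chosen by name, without S100a8 and S100a9, and all 10 were found among the 54532 genes of the deposited count table. Of the 10, 9 passed the filter on low counts, as did 14706 genes in all. S100a4 did not pass and is described by its counts alone.

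The libraries hold the mRNA of bone marrow cells of aged wild-type C57BL/6 mice, labelled HSPCs: haematopoietic stem and progenitor cells, which renew all blood lineages. The cells of 3 libraries had been given vehicle and those of the other 3 libraries uridine, a nucleoside from which cells make pyrimidine nucleotides. The labels give no age, dose, duration or sorting markers, and they do not say whether the libraries of a group came from separate mice or cultures, so each p-value reflects the spread among these libraries alone. Libraries held 16109265 to 18638627 counts, and 3 counts equalled 0.161 to 0.186 CPM, a limit that covers counting error only. CPM is the count relative to the library's total, adjusted by TMM normalization factors. Of 18 stem and progenitor markers 17 passed the filter, among them the stem cell factor receptor gene Kit, at 363 to 386 CPM, and the progenitor marker gene Cd34, at 609 to 637 CPM. Of the list's other markers, Lmo2 was at 526 to 572 CPM and Myb at 364 to 412 CPM, while some were much lower. Ly6a was at 14.3 to 15.9 CPM in vehicle and 2.74 to 3.96 CPM in uridine libraries. Over all libraries Slamf1 was at 9.27 to 12.2 CPM, Fgd5 at 3.45 to 7.87 CPM and Procr at 3.97 to 5.24 CPM.

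S100 proteins are small EF-hand proteins that change shape when they bind calcium and then hold on to partner proteins inside the cell. Some are also released and act outside it. Annexins bind acidic phospholipids of membranes in the presence of calcium and take part in vesicle traffic, membrane repair and the restraint of inflammation. The families meet in known partnerships: S100A10 binds annexin A2, and S100A11 binds annexin A1.

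In uridine-treated cells S100a1, S100a6 and S100a10 were slightly higher and Anxa1, Anxa2 and Anxa3 lower. Of the 4 S100 genes tested, 3 rose and 0 fell, and of the 5 annexin genes 3 fell and 0 rose. The call required an adjusted p under 0.05 in edgeR's quasi-likelihood test. By that rule 7.18% of all genes tested rose and 10.1% fell, or 17.3% in either direction, and 21.3% changed among genes with a mean of at least 50 counts, which all 9 tested members reached. The groups did not overlap for 7 of the 9 genes, with 3 higher and 4 lower in uridine, where 14.7% and 16.1% of all genes tested were separated in those directions. The median log2 fold change was 0.20 over the S100 genes and -0.18 over the annexins, against 0.005 over all genes tested. The fall of Anxa3 was by far the largest of these changes, and no other called member changed by more than the 20.1% of S100a6. In libraries from bulk cells, fewer cells of a type and less RNA per cell cannot be told apart. Summed monocyte markers, given with the marker lists, were lower in all uridine libraries than in any vehicle library. The same held for summed neutrophil and granule genes, but the largest part of that sum was Mpo, which myeloid progenitors also express. When the trend of fold change on gene length was removed, 2 S100 genes rose and 1 fell, and 4 annexins fell. The median log2 fold change was then 0.12 over the S100 genes and -0.192 over the annexins, against 0.003 over all genes tested. With that trend removed 6.17% of all genes rose and 8.85% fell, or 5.64% and 8.33% in a fit that also held the replicate number as a block.

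**Figure D1:**
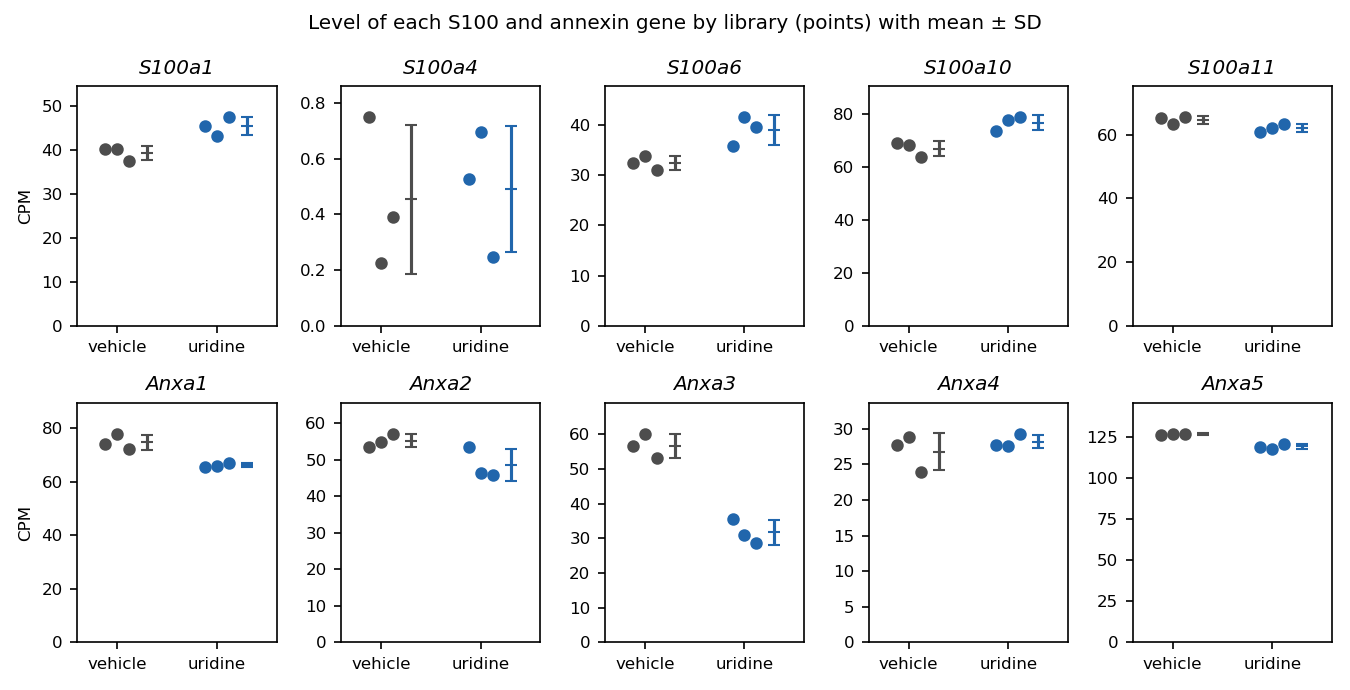
Level of each gene in CPM (vertical axis, starting at 0) in the 3 vehicle and 3 uridine libraries; points are libraries and bars the mean ± SD. Anxa3 dropped from 53.0 to 60.1 CPM in vehicle to 28.5 to 35.5 CPM in uridine, while the shifts of S100a1, S100a6, S100a10, Anxa1 and Anxa2 were small beside their levels and S100a4 stayed under 1 CPM.

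Among the S100 genes, S100a10 (ENSMUSG00000041959; chromosome 3, 93555080 to 93564643 in mm10) encodes the light chain of the annexin A2 complex, an S100 protein whose EF hands no longer bind calcium. It stood at 69.0, 68.4 and 63.7 CPM in the vehicle libraries and at 73.6, 78.0 and 78.9 CPM in the uridine libraries. All uridine libraries lay above all vehicle libraries. The means were 67.0 ± 2.89 and 76.8 ± 2.85 CPM (SD, n = 3), a log2 fold change of 0.20 ± 0.048 (SE; adjusted p = 0.0015). With the length trend removed the log2 value was 0.13 (adjusted p = 0.0491), and with the replicate number as a block as well the call was lost (adjusted p = 0.0664).

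S100a6 (ENSMUSG00000001025; chromosome 3, 90612882 to 90624181) encodes calcyclin, which is found in many proliferating cells and binds annexins and the co-chaperone SGT1. Its vehicle libraries were at 32.4, 33.8 and 31.1 CPM and its uridine libraries at 35.7, 41.5 and 39.6 CPM. The groups were separate, with the first uridine library nearest to vehicle. The log2 fold change was 0.26 ± 0.07 (adjusted p = 0.0035), the largest rise among the members. Removing the length trend left 0.21 (adjusted p = 0.032), and the call was lost without uridine replicate 2 (adjusted p = 0.0543).

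S100a1 (ENSMUSG00000044080; chromosome 3, 90511034 to 90514392) encodes a protein best known as a regulator of calcium cycling in heart muscle. It was measured at 40.2, 40.3 and 37.4 CPM in vehicle and 45.5, 43.2 and 47.4 CPM in uridine libraries. Again no uridine library fell within the vehicle range. The log2 fold change was 0.21 ± 0.063 (adjusted p = 0.014). Removing the length trend left 0.11, where the call was lost (adjusted p = 0.291, or 0.302 with the replicate number as a block as well), as it was without vehicle replicate 3 (0.096) or uridine replicate 3 (0.0898).

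S100a11 (ENSMUSG00000027907; chromosome 3, 93520488 to 93526287), the partner gene of Anxa1, was not called. Its values were 65.3, 63.2 and 65.4 CPM in vehicle and 60.9, 62.0 and 63.3 CPM in uridine libraries, so the highest uridine library reached the lowest vehicle one. The log2 fold change was -0.059, with a 95% interval from -0.16 to 0.041 (adjusted p = 0.49). Its length of 511 bases in the deposited table was the shortest of the set. With the length trend removed S100a11 stood at -0.18 and passed the threshold (adjusted p = 0.00888).

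S100a4 (ENSMUSG00000001020; chromosome 3, 90603771 to 90606045), which is prominent in fibroblasts, macrophages and memory T cells, was nearly silent. It had 13, 4 and 7 counts in the vehicle and 9, 13 and 4 counts in the uridine libraries. These values overlap throughout, and no difference was detectable at this depth. In a fit without a count filter its log2 fold change was 0.13, with a 95% interval from -1.09 to 1.35.

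The S100 genes of chromosome 3 lie in a region of 3054 kb from S100a1 to S100a10, in which 14 S100 genes are annotated. Of the 121 genes of this region 9 were tested, 7 of them S100 genes, and 95 had no count in any library. Counted from the S100a1 end, S100a1 and its neighbour S100a13 rose, the next 6 S100 genes from S100a14 to S100a5 were too low to test, S100a6 rose, and beyond the silent S100a7a both S100a8 and S100a9 fell. S100a11, which was not called, and S100a10, which rose, lie at the far end. S100a13, which takes part in the release of growth factors that lack a signal sequence, changed from 18.2 ± 0.543 to 21.7 ± 1.61 CPM (log2 0.25 ± 0.09, adjusted p = 0.042). That call was marginal: leaving out any library but uridine replicate 3 ended it, as did DESeq2's Wald test (adjusted p = 0.105), a fit with no count filter (0.0775) and the replicate number as a block (0.0588). With the length trend removed the log2 value was 0.15 (adjusted p = 0.293). S100a8 and S100a9, the calprotectin genes of neutrophils and monocytes, lie less than 100 kb beyond S100a6 and went the other way. S100a8 stood at 18.5, 20.4 and 20.4 CPM in vehicle and 13.4, 12.5 and 11.4 CPM in uridine libraries (log2 -0.67 ± 0.10), and S100a9 changed by -0.64 ± 0.094. The 2 other genes tested in the region, Gm9774 and the pseudogene Gm4202, were not called.

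**Figure D2:**
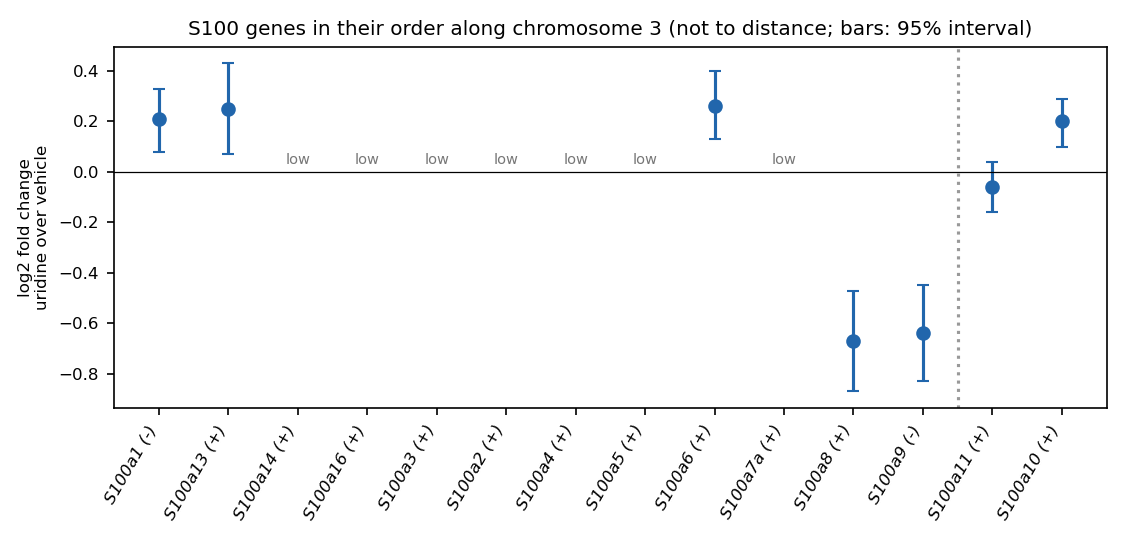
Log2 fold change of the S100 genes (vertical axis, uridine over vehicle, with 95% intervals) in their order along chromosome 3, with the strand in brackets; the horizontal axis is order, not distance, the dotted line marks the long gap before S100a11, and "low" marks genes that did not pass the count filter. S100a1, S100a13, S100a6 and S100a10 lie above 0, S100a8 and S100a9 below -0.4, and the interval of S100a11 includes 0.

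S100a1 and S100a13 are transcribed away from each other from starts that lie 105 bases apart in RefSeq, and their promoter windows (250 bases before to 50 after the start, RefSeq, GRCm38.p6, the assembly also called mm10) share 204 bases. RefSeq windows were matched for 8 of the 10 members; S100a10 and Anxa3 had none. The windows shown are those of the called members for which there was one: S100a1 and S100a6, which rose, and Anxa1 and Anxa2, which fell. In the S100a1 window (chr3:90514281-90514580, minus strand) capitals mark the bases between the start of S100a1 and that of S100a13. In the S100a6 window (chr3:90612644-90612943, plus strand) they mark a CCAAT box read on the opposite strand, and in the Anxa1 window (chr19:20390622-20390921, minus strand) a TATA box. In the Anxa2 window (chr9:69453433-69453732, plus strand) they mark in order a GC box, an AP-1 match read on the opposite strand, a pair of GC boxes and a TATA box.
S100a1: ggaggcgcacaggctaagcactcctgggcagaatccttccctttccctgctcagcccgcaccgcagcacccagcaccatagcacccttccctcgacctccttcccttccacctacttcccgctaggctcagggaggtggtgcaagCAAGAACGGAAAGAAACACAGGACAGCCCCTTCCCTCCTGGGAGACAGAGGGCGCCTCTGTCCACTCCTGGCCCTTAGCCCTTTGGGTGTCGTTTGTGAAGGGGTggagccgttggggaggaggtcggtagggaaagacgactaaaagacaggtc
S100a6: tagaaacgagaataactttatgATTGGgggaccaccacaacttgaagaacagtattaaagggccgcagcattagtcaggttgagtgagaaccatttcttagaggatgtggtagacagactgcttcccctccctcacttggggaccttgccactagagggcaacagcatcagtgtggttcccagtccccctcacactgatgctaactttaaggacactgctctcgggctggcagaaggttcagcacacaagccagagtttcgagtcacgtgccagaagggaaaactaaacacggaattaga
Anxa1: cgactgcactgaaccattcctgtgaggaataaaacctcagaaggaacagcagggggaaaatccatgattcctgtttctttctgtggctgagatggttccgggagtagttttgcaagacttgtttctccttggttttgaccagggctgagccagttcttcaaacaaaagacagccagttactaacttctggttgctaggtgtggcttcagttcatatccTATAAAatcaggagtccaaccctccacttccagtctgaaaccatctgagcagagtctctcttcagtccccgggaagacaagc
Anxa2: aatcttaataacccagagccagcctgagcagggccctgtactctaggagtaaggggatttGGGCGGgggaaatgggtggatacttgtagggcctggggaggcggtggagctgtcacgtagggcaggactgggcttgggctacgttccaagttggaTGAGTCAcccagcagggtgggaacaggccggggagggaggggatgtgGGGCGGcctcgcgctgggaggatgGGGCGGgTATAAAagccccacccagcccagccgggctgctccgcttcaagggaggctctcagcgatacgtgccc

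Each motif was searched on both strands, and in the windows shown no match overlaps another. The AP-1 letters TGACTCA were present in 5.2% of the 32851 RefSeq windows, and among the members once in Anxa2 and at 2 places in S100a11. The TATA box was searched as TATAAA, held by 13.6% of windows, and occurred in Anxa1, Anxa2 and S100a4. The GC box was searched as GGGCGG, held by 35.7%, and occurred 3 times each in Anxa2 and S100a11 and once in Anxa4. The CCAAT box, held by 37.4%, occurred in S100a6. The letters GAGGAAG, bound by PU.1 and other ETS factors and held by 13.6%, occurred in S100a4. No searched letters were in the windows of S100a1, S100a13 and Anxa5.

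Among the annexins, Anxa3 (ENSMUSG00000029484; chromosome 5, 96793339 to 96845966) changed most. Annexin A3 is abundant in neutrophils, where it associates with granules. The vehicle libraries had 983, 1070 and 952 counts, or 56.6, 60.1 and 53.0 CPM, and the uridine libraries 609, 579 and 460 counts, or 35.5, 31 and 28.5 CPM. The lowest vehicle library was well above the highest uridine library. The log2 fold change was -0.83 ± 0.066 (adjusted p = 5.5e-17), or 0.561 times the vehicle level. It was the only member that also passed the test against a 1.5-fold change (adjusted p = 0.00453), in which 0.959% of all genes fell and 0.0136% rose, and it was called under every alternative tried, with log2 values from -0.92 to -0.77.

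Anxa1 (ENSMUSG00000024659; chromosome 19, 20373428 to 20390944) encodes a glucocorticoid-induced protein that restrains inflammation through formyl peptide receptors. Its vehicle libraries stood at 73.9, 77.8 and 72.2 CPM and its uridine libraries at 65.4, 65.8 and 67.0 CPM, with no overlap. The log2 fold change was -0.18 ± 0.048 (adjusted p = 0.005). The call was lost without vehicle replicate 2, the highest library (adjusted p = 0.06).

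Anxa2 (ENSMUSG00000032231; chromosome 9, 69453620 to 69491795), whose protein organizes membrane and actin and binds plasminogen at the cell surface with S100A10, stood at 53.6, 54.8 and 57.1 CPM in vehicle libraries. Its uridine libraries were at 53.6, 46.4 and 45.8 CPM. The groups barely separated, since the first uridine library lay just under the lowest vehicle library. The log2 fold change was -0.18 ± 0.059 (adjusted p = 0.021). The call did not hold with DESeq2's Wald test (adjusted p = 0.0698) or without vehicle replicate 3 (0.111), uridine replicate 2 (0.133) or uridine replicate 3 (0.124).

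Anxa5 (ENSMUSG00000027712; chromosome 3, 36448923 to 36475894), the phosphatidylserine-binding annexin used to stain dying cells, had the highest counts of the set. Its values were tight at 126, 127 and 127 CPM in vehicle and 119, 118 and 121 CPM in uridine libraries. Although these groups did not overlap, the log2 fold change of -0.084 (95% interval -0.16 to -0.013) missed the threshold (adjusted p = 0.097). With the length trend removed it was -0.13 and was called (adjusted p = 0.00692).

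Anxa4 (ENSMUSG00000029994; chromosome 6, 86736840 to 86793584), an annexin of secretory and epithelial cells, stood at 27.7, 28.8 and 23.9 CPM in vehicle and 27.7, 27.6 and 29.3 CPM in uridine libraries. The groups overlapped, and the log2 fold change of 0.073 had a 95% interval from -0.084 to 0.23 (adjusted p = 0.61). Without vehicle replicate 3 it was -0.004.

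The other annexin genes were Anxa6 to Anxa11 and Anxa13, of which 4 were tested. Anxa6, a large annexin of endosomes and the plasma membrane, fell from 67.5 ± 2.72 to 58.8 ± 3.35 CPM (log2 -0.20 ± 0.052, adjusted p = 0.003). Anxa7, linked to membrane fusion and secretion, rose from 117 ± 2.56 to 126 ± 4.86 CPM (0.11 ± 0.037, adjusted p = 0.03), a call lost with DESeq2's Wald test (0.0945) and without vehicle replicate 1 (0.126), vehicle replicate 2 (0.0651), uridine replicate 1 (0.196) or uridine replicate 3 (0.0755). Anxa9 (-0.15, 95% interval -0.35 to 0.054) and Anxa11 (0.099, -0.032 to 0.23) were not called. Anxa8, Anxa10 and Anxa13 had 0 counts in all libraries. The median over the 4 was -0.025. S100a7a, S100a16 and S100z also had 0 counts in all libraries.

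**Figure D3:**
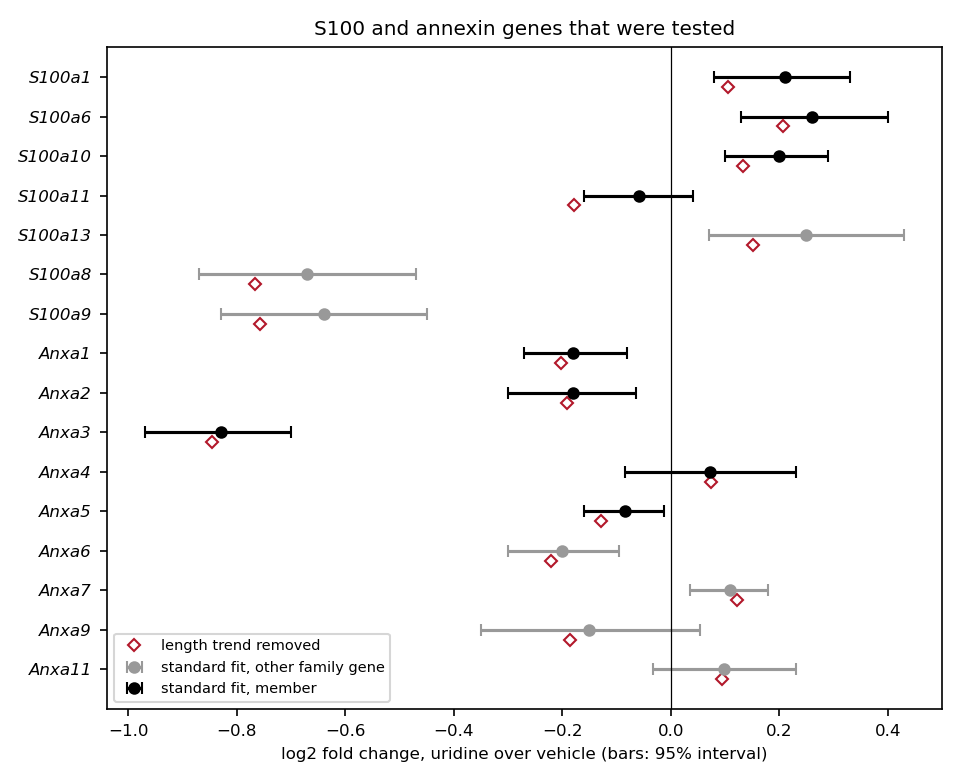
Log2 fold change of uridine over vehicle (horizontal axis) for each S100 and annexin gene tested; filled points with 95% intervals are from the standard fit, black for the 9 tested members and grey for other genes of the families, and open diamonds are the values with the length trend removed. The diamonds of the S100 genes lie left of their points, that of S100a11 at -0.18 and that of S100a1 at 0.11, while those of Anxa1 to Anxa4 lie close to theirs.

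The S100 members are short, with lengths from 511 to 1367 bases in the deposited table, and the annexins longer, from 1777 to 4645 bases. Fold change varied with length over all genes. Of 1353 tested genes of at most 1000 bases 10.3% rose and 3.25% fell, with a median log2 fold change of 0.11. Of 7120 genes over 4000 bases 5.56% rose and 14.4% fell, with a median of -0.02. The smooth trend at the members' lengths, uridine minus vehicle, was 0.118 for S100a11, 0.101 for S100a1, 0.064 for S100a10 and 0.058 for S100a6, against 0.044 for Anxa5, 0.027 for Anxa1 and 0.011 or less in size for the other annexins. The rises of S100a6 and S100a10 and the falls of Anxa1, Anxa2 and Anxa3 were still called with the trend removed.

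**Figure D4:**
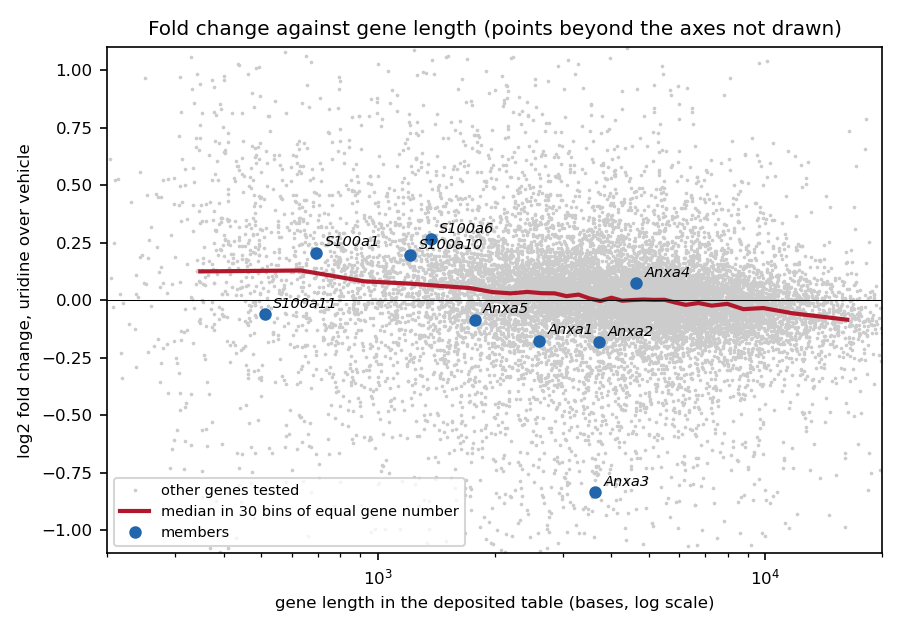
Log2 fold change of uridine over vehicle (vertical axis) against gene length in bases (log scale) for the genes tested, with the members in blue and the median of 30 bins of equal gene number as a red line. The line falls from short to long genes; S100a1, S100a6 and S100a10 lie above it, S100a11 below it, and Anxa3 far below it at -0.83.

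Levels were compared between genes per length, as RPKM (CPM per kilobase of the length in the deposited table). In vehicle libraries S100a11 was highest at 127 ± 2.44 RPKM (SD, n = 3), at the 98th percentile of genes tested. Anxa5 followed at 71.3 ± 0.265, then S100a1 at 56.6 ± 2.36 and S100a10 at 55.3 ± 2.38, a neighbouring pair that did not differ beyond its spread. Anxa1 stood at 28.6 ± 1.09 and S100a6 at 23.7 ± 0.971 RPKM. Anxa3 at 15.5 ± 0.979 and Anxa2 at 14.8 ± 0.471 were again within their spread, and Anxa4 was at 5.77 ± 0.553 and S100a4 at 0.778 ± 0.458. In uridine libraries S100a6 (28.5 ± 2.17) stood above Anxa1 (25.3 ± 0.315), and Anxa2 (13 ± 1.16) above Anxa3 (8.70 ± 0.976). The summed RPKM of the S100 members was 263 ± 4.91 in vehicle and 280 ± 7.09 in uridine libraries, and that of the annexins 136 ± 2.39 and 120 ± 1.78.

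Within the families the shares of S100a11 and Anxa3 were lower in uridine libraries by more than their spread. S100a11 made up 48.1% ± 1.36 of the summed S100 RPKM in vehicle and 43.4% ± 0.266 in uridine libraries, and S100a10 21.0% ± 0.561 and 22.7% ± 0.372. Anxa5 made up 52.5% ± 0.866 and 55.9% ± 0.943 of the annexin sum. The share of Anxa3 was 11.4% ± 0.531 in vehicle and 7.22% ± 0.74 in uridine libraries, while Anxa1 held 21.0% in both. A share also depends on the other members. S100a11 itself was not called, and the CPM of Anxa5 was lower in all uridine libraries although its share was higher. The shares were not corrected for the trend on gene length.

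The partner genes were compared by their ratio of RPKM within each library. For Anxa2 to S100a10 the ratio was 0.252, 0.260 and 0.291 in vehicle and 0.236, 0.193 and 0.189 in uridine libraries. All uridine libraries lay below all vehicle libraries, with means of 0.268 ± 0.0204 and 0.206 ± 0.0264 (SD, n = 3), a log2 difference of -0.38. The exact two-sided permutation p was 0.1, the smallest that this test can give with 3 against 3 libraries, so it cannot reach 0.05 here. For Anxa1 to S100a11 the ratio was 0.222, 0.241 and 0.216 in vehicle and 0.211, 0.208 and 0.207 in uridine libraries, a log2 difference of -0.12 with the same exact permutation p of 0.1. With the length trend removed the first difference was -0.33 and the second -0.025 (exact permutation p = 0.1 and 0.9).

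**Figure D5:**
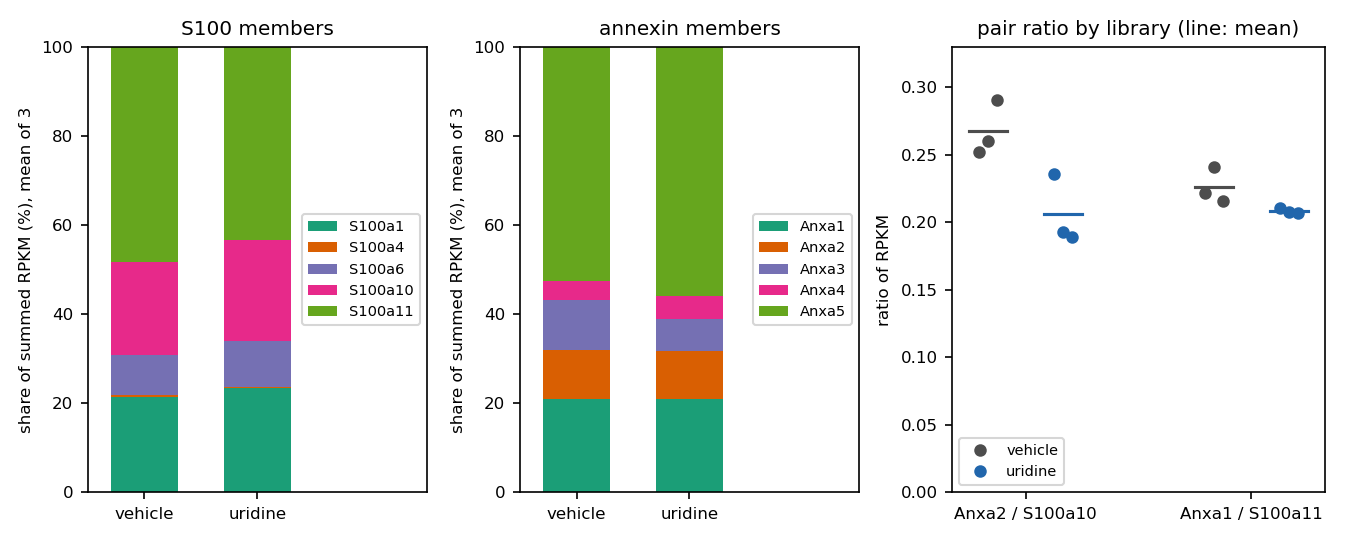
Left and middle, share of each member in the summed RPKM of its family (percent, means of 3 libraries, stacked to 100); right, ratio of RPKM of the partner genes in each library (points) with group means (lines), grey for vehicle and blue for uridine. The Anxa3 share shrinks from 11.4% to 7.22%, and the Anxa2 to S100a10 ratio is lower in every uridine library than in any vehicle library.

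Genes of known binding partners and receptors of these proteins went both ways. Of 16 listed, 13 were tested, 3 fell and 3 rose, with a median of -0.11, where 10.1% of all genes tested fell and 7.18% rose. Ahnak, which encodes a giant scaffold protein held by the annexin A2 and S100A10 complex, fell from 46.2, 45.1 and 46.4 CPM to 30.9, 26.4 and 29.8 CPM (log2 -0.66 ± 0.068, adjusted p = 1.6e-12). Myh9, the non-muscle myosin heavy chain that S100A4 binds, fell by 0.13 on the log2 scale (SE 0.014). With the length trend removed Myh9 stood at -0.067 and Ahnak at -0.57, and both were still called. Fpr2, a receptor for annexin A1, fell from 32, 23 and 24 counts to 1, 1 and 4 counts (95% interval of the log2 fold change -4.74 to -2.46, adjusted p = 8.5e-07). Plgrkt, a plasminogen receptor gene, rose by 0.25 ± 0.058 (adjusted p = 6.9e-04). The list's other rises, chosen for naming with their values in view, were the phospholipase gene Pla2g4a (0.12, adjusted p = 0.003) and the co-chaperone gene Sugt1 (0.16, adjusted p = 0.028). The Sugt1 call was lost with DESeq2's Wald test (0.0698) and without vehicle replicate 2 (0.107), vehicle replicate 3 (0.0632), uridine replicate 2 (0.0977) or uridine replicate 3 (0.0906). The S100 receptor genes Ager (0.16, 95% interval -0.34 to 0.65) and Tlr4 (-0.24, -0.50 to 0.01) were not called, and the plasminogen activator gene Plat had 0 counts in all libraries.

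Among 16 tested genes of membrane repair and lipid scrambling 4 rose and 0 fell, with a median of 0.025, where 7.18% of all genes tested rose and 10.1% fell. The named genes of this list are those that rose. These were the scramblase gene Plscr1 (0.24 ± 0.034, adjusted p = 7.5e-08), the calpain small subunit gene Capns1 (0.12 ± 0.028), Pdcd6, the calcium sensor of the ESCRT machinery (0.19 ± 0.048), and its ATPase gene Vps4a (0.31 ± 0.076), whose groups overlapped. Of 28 other EF-hand genes tested 3 rose and 3 fell, with a median of 0.019. That share is near the 21.3% called in either direction among all genes with a mean of at least 50 counts. The actin-bundling gene Lcp1 (-0.21 ± 0.019), the grancalcin gene Gca (-0.47 ± 0.11) and the nucleobindin gene Nucb2 (-0.66 ± 0.17) fell, and the myosin light chain gene Myl6 (0.25 ± 0.024) rose. With the length trend removed Lcp1 stood at -0.17. The sorcin gene Sri (0.14), also chosen for naming with its value in view, rose as well.

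Markers of monocytes and genes of neutrophils and their granules were lower in uridine libraries beside the falling annexins. The counts of each list stand beside 7.18% of all genes tested that rose and 10.1% that fell. Of 20 monocyte and macrophage markers tested 18 fell and 0 rose (median -1.26), led by Cybb, Ly6c2, Lyz2 and Ccr2, and the summed level of the listed markers was 817 to 841 CPM in vehicle and 381 to 389 CPM in uridine libraries. Of 19 neutrophil and granule genes tested 15 fell and 1 rose (median -0.85), led by Mpo, Hp, Prtn3 and Elane, with sums of 3189 to 3262 and 1710 to 1762 CPM. Mpo, Prtn3 and Elane are primary granule genes that myeloid progenitors also express. Mpo alone, at 1945 ± 33.1 CPM in vehicle and 1044 ± 27.8 CPM in uridine libraries, was the largest part of the neutrophil and granule sum. The gene that rose was Ltf, which encodes lactoferrin of the secondary granules of later neutrophil stages (log2 1.13 ± 0.19, adjusted p = 4.2e-06). The other called genes of the list all fell, among them Lcn2 (-1.09 ± 0.23), Mmp8 (-2.34 ± 0.22) and Ngp (-0.37 ± 0.12). No listed marker of either kind was at 0 in all libraries, and the neutrophil genes Ly6g, Mmp9 and Retnlg did not pass the filter. The part of these cells in the changes of Anxa1, Anxa2, Anxa3, S100a8 and S100a9 was not tested. The medians were 0.26 for 12 mast cell and basophil markers (6 rose, 2 fell, led by Prss34, Gata2, Slc18a2 and Cma1), 0.043 for 12 megakaryocyte markers (6 rose, 3 fell, led by the rises of Pf4, Itga2b and Rap1b and the fall of Ppbp), 0.33 for 7 erythroid markers (4 rose, 1 fell, led by Car2, Hemgn, Epor and Gata1), -0.0011 for 10 lymphoid markers (0 rose, 2 fell, Dntt and Nkg7) and 0.08 for 6 stromal and endothelial markers (2 rose, Tek and Col1a2, and 1 fell, Fbn1). The stromal genes Dcn and Lum had 0 counts in all libraries. Of the 17 stem and progenitor markers 9 rose and 4 fell (median 0.085), led by the rises of Gata2 and Hlf and the falls of Ly6a and Flt3.

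Overlapping gene models took few counts. On the opposite strand, Gm16144, over Anxa2, and Gm44036, over Anxa4, reached at most 2 and 6 counts in a library. Gm42603, on the same strand as Anxa3, reached at most 3 counts, and the pseudogene S100a11-ps had 0. The sources used here do not say whether strand was used in counting or how reads with several positions were treated.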

How the data were processed

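Per the labels' protocols, Trizol was used to extract RNA from cultured cells, poly-T beads to select mRNA, and an Illumina NovaSeq instrument to read it in pairs. The deposited table holds raw counts, whole numbers of reads per gene and library, with each gene's position, biotype and length. The submitters' processing notes name HISAT2 2.0.5 and mm10. How reads were assigned to genes, and with which annotation and strand setting, is not given in the sources used here.

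Counts were filtered with filterByExpr, normalized by TMM and tested with edgeR 4.0.16 (glmQLFit, robust; R 4.3.3), with treatment as the single term and Benjamini-Hochberg adjustment over 14706 genes. SE is the coefficient over the square root of F. Ratios were compared by exact permutation. Members, gene lists and tests were chosen with earlier results of these data known. Genes named beside the members are mainly the up to 4 smallest p-values among called genes of each list, the tested genes of the S100 region, and the 3 protein-coding genes most correlated with the leading member of each family. Further genes, such as Ltf, Lcn2, Slamf1, Ager and Tlr4, were named outside this rule with their values known. A called gene of the EF-hand list is not reported here. The script was tested on simulated counts that had 1 common spread for all genes, with 50 genes changed by each fold. Of the 1.1-fold changes 16% were called, of the 1.25-fold 78%, of the 1.5-fold 94% and of the 2-fold 100%. Of 153 calls 9 were false. A gene that was not called may therefore still have changed by a small amount. The chi-square per gene between libraries of the same group was 2.28 to 2.52, more than the 1 of sampling noise, so no library was taken as a duplicate. Alternatives were DESeq2 1.42.0, limma-voom (limma 3.58.1), other scalings and filters, a 1.5-fold threshold, a replicate block, removal of the trend on gene length, protein-coding nuclear genes, and each library left out.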

Additional observations from a re-analysis of the deposited data

How the results depend on the processing

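Under 17 alternatives Anxa3 kept its direction and its call. The other called members kept their direction, with the lost calls given beside each, and each lost its call in the test against a 1.5-fold change. In that test 141 genes fell and 2 rose, among them 1 and 0 members. With the length trend removed 5 members fell and 2 rose, and with the replicate block and the length trend removed 5 fell and 1 rose; the members' fold changes themselves moved with the trend at their lengths. DESeq2's Wald test called 688 rising genes. Leaving out each library in turn gave 1234 to 1367 falling and 799 to 867 rising genes, 2 to 3 falling and 2 to 3 rising members, and log2 values of Anxa4 from -0.004, the single reversal of sign among the members, to 0.13. It gave log2 differences of the Anxa2 to S100a10 ratio from -0.485 to -0.322 and of the Anxa1 to S100a11 ratio from -0.148 to -0.070. The replicate numbers do not pair the libraries by any label, and deviations of equally numbered libraries correlated at -0.015 to 0.027; the replicate block alone gave 1428 falling and 972 rising genes and 3 falling and 3 rising members. Some of the genes named beside the members, and the length correction of the ratios, were put through these alternatives after the data were seen. At these depths changes of S100a4 within the interval given could not be detected.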

Other observations

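Over the 6 libraries the protein-coding genes whose log2 CPM was most correlated with that of S100a10 were Ngdn, Vamp3 and Ndufs7, with Pearson's r of 0.994, 0.991 and 0.988. Those most like Anxa3 were Entpd7, Nav1 and Adam8, with r of 0.997, 0.996 and 0.996. These points share the difference between the groups, and 97 genes had an r above 0.95 with S100a10 and 357 with Anxa3. Vamp3 and Entpd7 were called by edgeR. Nav1 was called too, but not with the length trend removed (log2 -0.088, adjusted p = 0.173). Ndufs7 was called but lost its call in 12 of 17 alternatives, while Ngdn (adjusted p = 0.093) and Adam8 (adjusted p = 0.18) were not called. Ngdn stood at 44.4 ± 1.43 CPM in vehicle and 49.0 ± 1.23 CPM in uridine libraries (SD, n = 3), and Entpd7 at 21.3 ± 0.663 and 16.5 ± 0.904 CPM.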
